A study of Saccharomyces cerevisiae with 8 samples.

Results

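The ribosome biogenesis factors named UTP, NOP or RRP were followed across 8 RNA-seq libraries of Saccharomyces cerevisiae grown on xylose without oxygen. The members were every gene of the deposited table whose name starts with UTP, NOP or RRP directly followed by a digit. This name rule gave 53 of the 6328 genes in the table, 18 of them UTP, 17 NOP and 18 RRP genes, and all 53 passed the filter on low values in every comparison. No measured value entered the rule.

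These factors build ribosomes in the nucleolus, where RNA polymerase I copies the ribosomal DNA into a long precursor that is folded, modified and cut. UTP proteins (U3 proteins) and the U3 small nucleolar RNA assemble on the growing precursor into the small-subunit processome, NOP proteins (nucleolar proteins) include the cores of the particles that modify the RNA as well as many large-subunit factors, and RRP proteins (ribosomal RNA processing) include both assembly factors and subunits of the exosome, the nuclease complex that trims RNA from its 3′ end. In yeast, genes of this kind are known to be transcribed as a regulon that follows growth rate and nutrient signals, and their promoters are known for a pair of short elements, PAC and RRPE.

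All 4 groups were labelled Y128, a strain engineered to take up xylose carbon through xylose isomerase and then evolved. The study's methods name Y133, which is Y128 without its KanMX cassette. Per the study, Y128 carries loss of ISU1, HOG1, GRE3 and IRA2, the last an inhibitor of RAS/PKA signaling. WT had no further change, azf1Δ lacked AZF1, which encodes a zinc-finger transcription factor, MoBY control carried the empty MoBY plasmid, and AZF1 MoBY carried that plasmid with AZF1. Each group had 2 libraries, A and B, from exponential cultures on 2% xylose, and only the plasmid groups were grown with 200 mg/L G418. The study collected its duplicates on different days, so p-values measure the spread between such samples. The azf1Δ strain was made with a KanMX cassette, so azf1Δ against WT compares the cassette and the loss of AZF1 together. The plasmid groups carry the same resistance and alone had G418, so MoBY control against WT compares the plasmid and the drug together. Within each of these comparisons the parts cannot be told apart. AZF1 MoBY against MoBY control addresses what more AZF1 does to the members, and azf1Δ against WT what no AZF1, with the cassette, does.

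Values are RPKM, reads per kilobase of gene, scaled to the mapped reads of the library. The sizes of single reads in the table implied 6174000 to 7114000 mapped reads per library. AZF1 was at 0.05 and 0.12 RPKM in azf1Δ, 11.6 to 14.3 in WT and MoBY control, and 73.5 and 74.0 in AZF1 MoBY, as labelled. The kanR gene was at 0.2 and 0.35 RPKM in WT, 11.8 and 8.17 in azf1Δ, 68.6 and 90.5 in MoBY control, and 36.5 and 40.2 in AZF1 MoBY. Its difference between AZF1 MoBY and MoBY control was -1.02 ± 0.15 (SE) on the log2 scale, with a limma adjusted p of 0.0110. These 2 groups thus differed in marker RNA as well as in AZF1. MoBY control A stood apart from MoBY control B in the members: 42 of 53 were lower in A, by a median of -0.29 on the log2(RPKM + 1) scale, against a median of -0.05 over all 5841 genes at 1 RPKM or more in both. In WT, azf1Δ and AZF1 MoBY 24, 11 and 22 members were lower in A, with medians of 0.00, 0.13 and 0.06. Most gene lists compared below shared the shift of MoBY control. There A was lower in 38 of 44 other small-subunit and 56 of 66 other large-subunit factors, with medians of -0.26 and -0.31. It was lower in 24 of 30 RNA polymerase I and III genes and 90 of 122 cytosolic ribosomal protein genes, with medians of -0.26 and -0.19. Among 17 other snoRNP and exosome genes 12 were lower in A, and among 13 regulators 5. Counts of calls are therefore also given without MoBY control A.

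**Figure D1:**
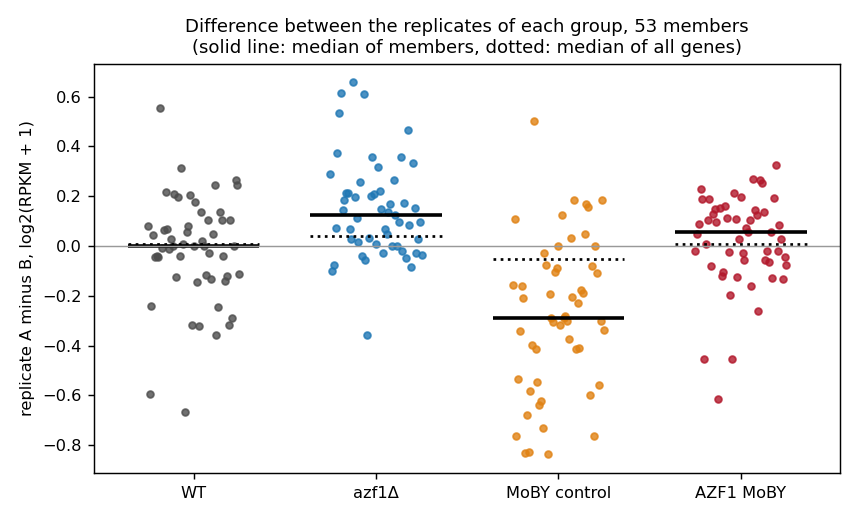
Difference between replicate A and replicate B of each group in log2(RPKM + 1), 1 point per member, with the median of the members as a solid line and the median of all genes as a dotted line. In MoBY control the members' median was -0.29, and in the other groups it lay between 0.00 and 0.13.

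The promoters are shown first because most members, though not all, hold PAC, RRPE or both there. The bases before each start codon were read from the RefSeq R64 reference of strain S288C, and the sequence of Y128 may differ. PAC was searched as GATGAG and RRPE as AAAATTTT, on both strands, over 250 bases. Of the 53 members, 43 held PAC, or 81.1%, against 16.4% of 5635 genes with such a window. RRPE was found in 31 members, or 58.5%, against 8.94% of all genes. The elements were rarer in the 7 exosome members, of which 3 held PAC and 1 held RRPE. Both were found in 26 members, or 49.1%, against 4.29% of all genes, and 5 members held neither: RRP42, RRP45, RRP46, UTP22 and UTP30. The first base of a PAC match lay a median of 119 bases before the start codon over 62 matches, and that of an RRPE match 133 bases over 39 matches. The stretches below belong to the C/D box proteins and to UTP5, UTP20 and UTP22, called in AZF1 MoBY against MoBY control. Not shown are UTP8, UTP4, NOP15 and RRP45, called in MoBY control against WT. UTP8 held 3 PAC matches and no RRPE, UTP4 held 1 RRPE and no PAC, NOP15 held 2 PAC and 1 RRPE, and RRP45 neither. PAC and RRPE matches are in capitals, and CTCATC is PAC on the other strand.
NOP1: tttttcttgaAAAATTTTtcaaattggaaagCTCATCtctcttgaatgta
NOP56: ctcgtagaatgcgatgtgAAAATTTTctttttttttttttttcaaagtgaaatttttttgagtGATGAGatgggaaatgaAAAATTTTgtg
NOP58: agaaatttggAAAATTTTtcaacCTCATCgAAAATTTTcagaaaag
UTP5: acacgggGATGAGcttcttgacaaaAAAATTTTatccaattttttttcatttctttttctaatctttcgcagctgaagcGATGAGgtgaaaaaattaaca
UTP20: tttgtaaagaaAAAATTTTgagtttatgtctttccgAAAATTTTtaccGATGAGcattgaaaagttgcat
UTP22: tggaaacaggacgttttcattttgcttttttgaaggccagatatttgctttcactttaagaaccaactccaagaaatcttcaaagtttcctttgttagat

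Each stretch runs toward the start codon and lies within the 250 bases searched. NOP56, NOP58 and UTP20 each hold a pair of RRPE matches beside a PAC match, UTP5 a pair of PAC matches and an RRPE match, and UTP22 none in its whole window. The biogenesis factors outside the name rule carried the same letters: PAC stood before 90.9% of 44 other small-subunit factors and 86.4% of 66 other large-subunit factors, and RRPE before 77.3% and 80.3%. Among 122 cytosolic ribosomal protein genes PAC stood before 9.84% and RRPE before 7.38%. The A4GA3 element, AAAAGAAA, known as a site of Azf1, was found on either strand before 15 members, or 28.3%, against 19.98% of all genes. A match is a description of letters and not a bound site.

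**Figure D2:**
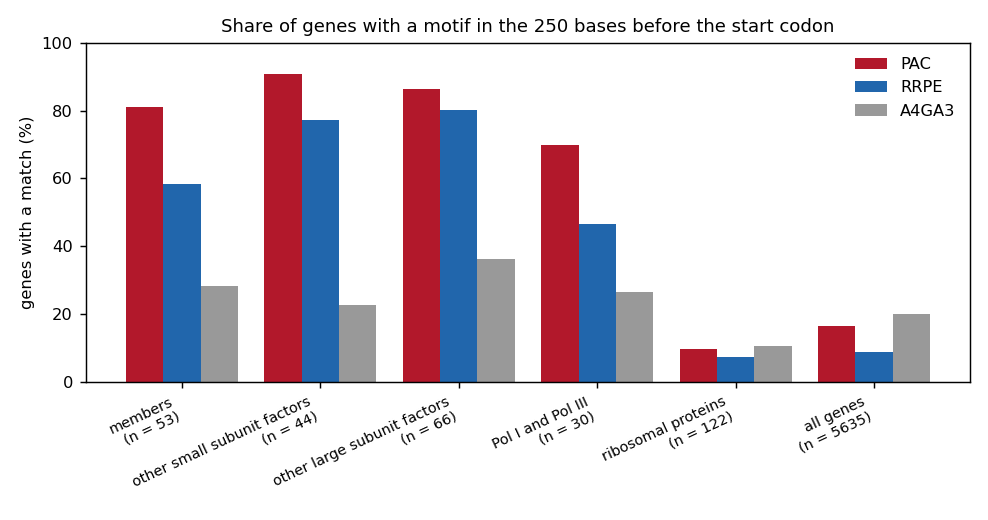
Share of genes in percent with at least 1 match to PAC, RRPE or A4GA3 in the 250 bases before the start codon, for the members, 4 other gene lists and all genes. PAC was found in 81.1% of the members and 16.4% of all genes, RRPE in 58.5% and 8.94%, and A4GA3 in 28.3% and 19.98%.

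The members were of middling abundance, with a median of 14.7 RPKM over the mean of the 8 libraries against 16.7 for all genes. NOP1 was the most abundant, with a mean of 166 RPKM, and RRP14, a nucleolar factor of ribosome synthesis, the least, with 3.78. RRP14 was measured at 3.81 and 2.87 RPKM in WT, 5.82 and 3.46 in azf1Δ, 2.79 and 2.99 in MoBY control, and 4.23 and 4.32 in AZF1 MoBY. Its AZF1 MoBY libraries lay above those of WT and MoBY control and inside the range of azf1Δ. The step of 1 read implies at least 15.9 reads for any member in any library, the lowest being UTP30 in MoBY control A, and 14 members fell below 50 reads in some library. The mean was highest in azf1Δ for 31 members and lowest in AZF1 MoBY for 30. Over all 6105 genes tested those shares were 31.3% and 39.1%.

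Loss of AZF1 gave no call among the members. None of 53 rose and none fell in azf1Δ against WT by limma with Benjamini-Hochberg adjustment over 5944 genes, where 0.942% of all genes were called higher and 0.791% lower (56 and 47 genes, and 24 and 37 after a median-ratio rescaling of the libraries). At an unadjusted p under 0.05 there were 2 higher and 1 lower. The members' median change was 0.07 on the log2(RPKM + 1) scale, against 0.04 over all genes. Of the 53 members, 37 lay above 0, or 69.8%, against 59.0% of all genes. After the rescaling the members' median was 0.02, against -0.001 over all genes, and 23 of 53 lay below 0. Both azf1Δ libraries lay above both WT libraries for 20 members, or 37.7%, against 30.7% of all genes, and below for 4, or 7.55%, against 17.6%. In RNA from whole cultures, fewer cells that express a gene and less of its RNA per cell cannot be told apart.

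Extra AZF1 was accompanied by lower RNA for 4 members. NOP56, UTP22, UTP5 and UTP20 fell in AZF1 MoBY against MoBY control, or 7.55% of the members, against 6.17% of 6029 genes called lower. None rose, with 10.2% of all genes called higher, and 1 member (RRP3) was higher at an unadjusted p under 0.05. The share of members called lower was thus near that of all genes. The median change was -0.08 against 0.0047 over all genes, with 33 of 53 below 0, or 62.3%, against 49.6% of all genes. The groups did not overlap for 16 members that were lower, or 30.2%, against 28.1% of all genes, and for 9 that were higher, or 17.0%, against 30.9%. Without MoBY control A only NOP56 was called and the median was -0.19, and without MoBY control B none was called, the median turned to 0.04 and 23 of 53 lay below 0. A fit with 1 library in a group calls fewer genes over the whole table, so a lost call is not particular to these members. With any 1 library left out, the change stayed between -1.04 and -0.65 for NOP56 and between -0.69 and -0.54 for UTP22. It stayed between -0.52 and -0.41 for UTP5 and between -0.43 and -0.38 for UTP20.

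The empty plasmid with G418 gave 5 calls, all lower. NOP1, RRP45, NOP15, UTP8 and UTP4 fell in MoBY control against WT, or 9.43% of the members, against 10.6% of 5991 genes called lower. None rose, with 13.2% of all genes called higher, and 1 member (UTP5) was higher at an unadjusted p under 0.05. The median was -0.25 against -0.02 over all genes, and 43 of 53 members lay below 0, or 81.1%, against 52.1% of all genes. MoBY control lay wholly below WT for 25 members, or 47.2%, against 32.6% of all genes, and wholly above for 4, or 7.55%, against 30.4%. Without MoBY control A the calls were NOP1 and NOP58, the median was -0.11 against 0.01 over all genes, and 28 of 53 members lay below 0. NOP1 was the only member called without WT A, without WT B or without MoBY control B.

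**Figure D3:**
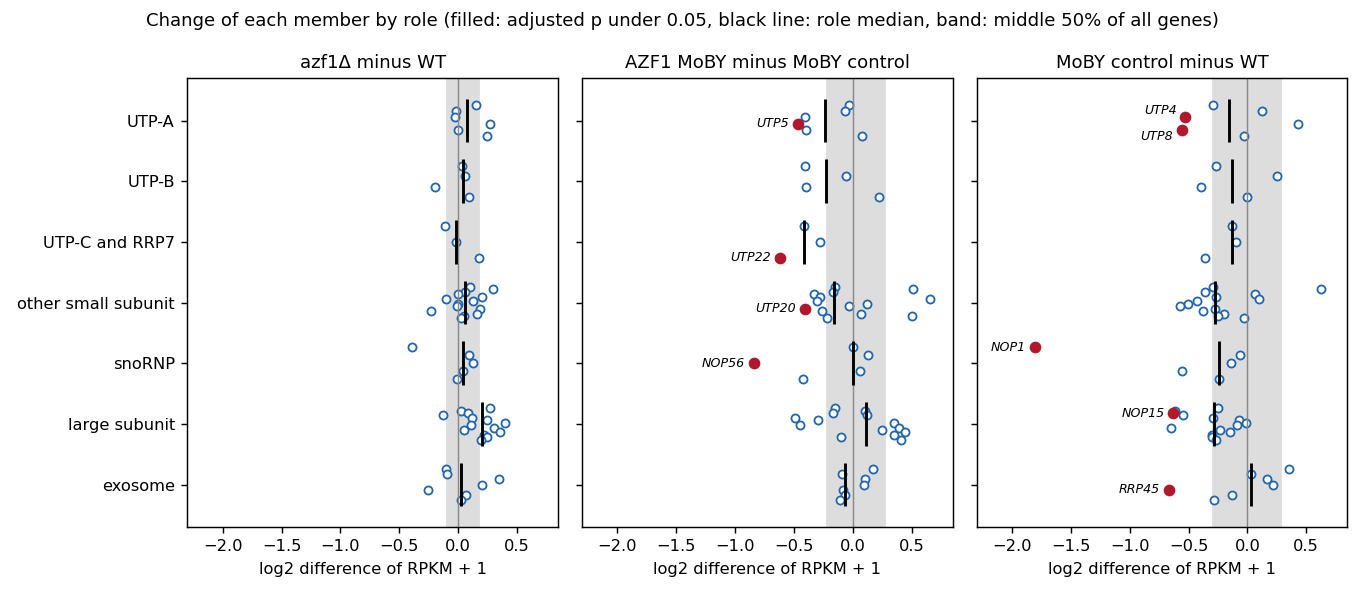
Log2 difference of RPKM + 1 for each of the 53 members, by role, in the 3 comparisons. Filled points passed an adjusted p under 0.05, black lines are role medians and the band holds the middle 50% of all genes tested. The 4 members called in AZF1 MoBY and the 5 called in MoBY control all lie to the left of 0.

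The difference of the effects, the change in AZF1 MoBY against MoBY control minus the change in azf1Δ against WT, was tested over all 8 libraries. It was below 0 and called for NOP56, UTP22, UTP5, UTP20 and RRP12, or 9.43% of the members, against 6.8% of 6105 genes. None was called above 0, with 7.9% of all genes (482 above 0 and 415 below, and 612 and 284 after the rescaling), and NOP1 and RRP3 were above 0 at an unadjusted p under 0.05 and were called after the rescaling, where RRP12 was not. The lists with calls rest on the same control libraries, so they are given side by side and not as separate evidence. Without either azf1Δ library or either AZF1 MoBY library 2 members were called (NOP56 and UTP22), without either WT library 3, and without MoBY control B 4, with RRP3 above 0. Without MoBY control A, 10 were called: the same 5 with NOP2, NOP4, NOP7, NOP12 and RRP5.

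The largest change of any member was in the C/D box particles, which place methyl groups on ribosomal RNA along guide RNAs. NOP1, the methyltransferase called fibrillarin in animals, was at 292 and 276 RPKM in WT, 239 and 195 in azf1Δ, 76.1 and 85.04 in MoBY control, and 79.9 and 81.0 in AZF1 MoBY. The 4 plasmid libraries lay close together and far below the others, and azf1Δ lay below WT without overlap. Against WT, NOP1 fell by 1.81 ± 0.11 (SE) on the log2 scale in MoBY control, to 0.284 of the WT mean, with an adjusted p of 0.000157 by limma. It was the only member called in that comparison under every alternative. In azf1Δ its change was -0.39 ± 0.11, the lowest of all members, with an adjusted p of 0.145. NOP1 in AZF1 MoBY and MoBY control had means of 80.5 ± 0.789 and 80.6 ± 6.31 RPKM (SD, n = 2).

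NOP56 and NOP58 are the scaffold proteins of the same particle. NOP56 was at 108 and 103 RPKM in WT, 119 and 113 in azf1Δ, 83.3 and 109.9 in MoBY control, and 55.7 and 50.2 in AZF1 MoBY. Only the AZF1 MoBY libraries stood clear of all others. NOP56 fell by 0.84 ± 0.15 (SE) in AZF1 MoBY against MoBY control, with a limma adjusted p of 0.0188, and the difference of the effects was -0.97 ± 0.18, with an adjusted p of 0.0104. NOP58, the partner of NOP56, was at 90.5 and 91.1 RPKM in WT, 94.4 and 92.4 in azf1Δ, 73.5 and 51.6 in MoBY control, and 66.7 and 62.2 in AZF1 MoBY. NOP58 differed by -0.55 ± 0.17 between MoBY control and WT with an adjusted p of 0.0665, and by 0.06 ± 0.17 between AZF1 MoBY and MoBY control. The ratio of NOP1 to NOP56 RPKM was 2.69 and 2.68 in WT, 2.01 and 1.73 in azf1Δ, 0.914 and 0.774 in MoBY control, and 1.43 and 1.61 in AZF1 MoBY, so it did not overlap between any of the groups. The ratio of NOP58 to NOP56 ranged from 0.470 to 0.883 in WT, azf1Δ and MoBY control and was 1.20 and 1.24 in AZF1 MoBY. These ratios were looked at after the values of the genes were known and were not tested.

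NOP10, a small protein of the H/ACA particles that guide pseudouridine formation, and RRP9, a protein of the U3 particle, were not called in any comparison. NOP10 ranged from 116 to 176 RPKM, its extremes being the pair of WT libraries. RRP9 had means of 16.5 ± 0.890 in WT, 16.4 ± 1.44 in azf1Δ, 13.9 ± 1.49 in MoBY control and 10.1 ± 0.789 in AZF1 MoBY (SD, n = 2), and its AZF1 MoBY libraries lay below all others.

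**Figure D4:**
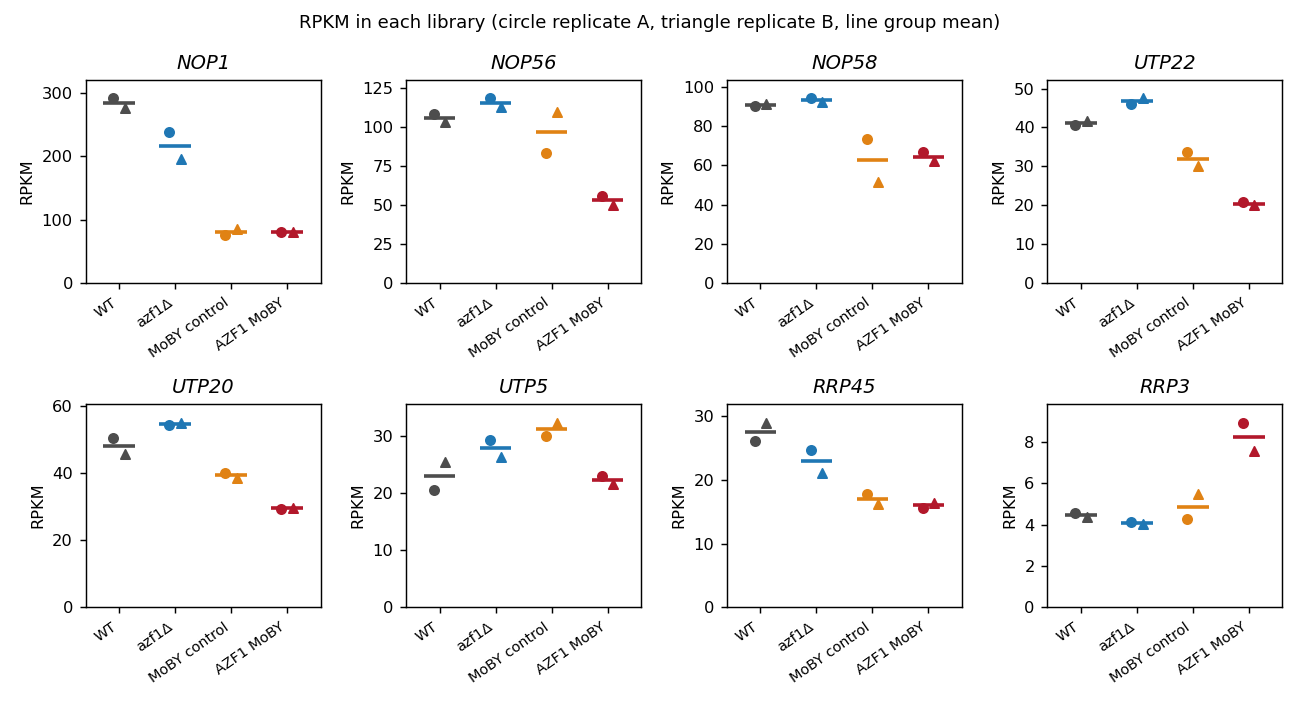
RPKM of 8 members in each library, with circles for replicate A, triangles for replicate B and lines for group means. NOP1 fell from 292 and 276 RPKM in WT to 76.1 and 85.04 in MoBY control, while NOP56 and UTP22 were lowest in AZF1 MoBY and RRP3 was highest there.

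UTP-A is the processome module that binds the precursor first and is also known to be needed for its transcription. UTP5 was at 20.7 and 25.5 RPKM in WT, 29.4 and 26.4 in azf1Δ, 30.1 and 32.4 in MoBY control, and 23.1 and 21.7 in AZF1 MoBY. MoBY control was above WT and above AZF1 MoBY without overlap, which no other called member showed. UTP5 fell by 0.46 ± 0.11 (SE) in AZF1 MoBY against MoBY control, with a limma adjusted p of 0.0452, and the difference of the effects was -0.73 ± 0.18, with an adjusted p of 0.0262. UTP8 was at 20.3 and 16.9 RPKM in WT, 19.2 and 17.9 in azf1Δ, 13.2 and 11.5 in MoBY control, and 8.94 and 9.25 in AZF1 MoBY. UTP4 was at 22.9 and 21.3 in WT, 24.4 and 19.2 in azf1Δ, 15.03 in both MoBY control libraries, and 11.0 and 11.2 in AZF1 MoBY. For UTP8 and UTP4 both plasmid groups lay below both groups without plasmid. In MoBY control against WT, UTP8 fell by 0.55 ± 0.16 with an adjusted p of 0.0474, and UTP4 fell by 0.53 ± 0.13 with an adjusted p of 0.0291. UTP10, the most abundant UTP-A gene, was at 41.9 and 42.8 RPKM in WT, 47.2 in both azf1Δ libraries, 36.8 and 32.2 in MoBY control, and 35.3 and 32.2 in AZF1 MoBY, and was not called. The remaining UTP-A members, UTP9 and UTP15, differed by -0.07 to 0.24 in the 3 comparisons.

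UTP-B, a module rich in beta-propeller proteins that joins the particle with the U3 RNA, had no call. Its most abundant member by this name rule, UTP13, was at 26.2 and 25.3 RPKM in WT, 27.5 and 25.1 in azf1Δ, 19.6 and 23.1 in MoBY control, and 17.4 and 14.3 in AZF1 MoBY. The levels stepped down from the groups without plasmid to MoBY control and again to AZF1 MoBY. The differences were -0.41 ± 0.16 (adjusted p 0.139) between AZF1 MoBY and MoBY control and -0.26 ± 0.13 (adjusted p 0.212) between MoBY control and WT. UTP21 differed by -0.40 ± 0.14 and -0.39 ± 0.13 in the same comparisons, and UTP6 and UTP18 by -0.06 to 0.25.

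UTP-C and the associated RRP7 and RRP36 showed the lowest role median in AZF1 MoBY against MoBY control, -0.42, over 3 members that were all lower without overlap. UTP22 was at 40.5 and 41.6 RPKM in WT, 45.9 and 47.5 in azf1Δ, 33.6 and 30.1 in MoBY control, and 20.8 and 19.97 in AZF1 MoBY. No groups overlapped, with azf1Δ highest and AZF1 MoBY lowest. UTP22 fell by 0.62 ± 0.12 (SE) in AZF1 MoBY against MoBY control, to 0.641 of the control mean, with a limma adjusted p of 0.0226. Its difference of the effects was -0.80 ± 0.13 with an adjusted p of 0.0069. RRP7 and RRP36 differed between AZF1 MoBY and MoBY control by -0.28 ± 0.16 and -0.42 ± 0.19, with adjusted p of 0.317 and 0.198.

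Of the 14 other small-subunit factors, UTP20 alone was called in a pairwise comparison. UTP20, a very long helical-repeat protein of the processome, was at 50.2 and 45.6 RPKM in WT, 54.2 and 54.9 in azf1Δ, 39.9 and 38.6 in MoBY control, and 29.2 and 29.7 in AZF1 MoBY. The groups did not overlap, in the same order as for UTP22. UTP20 fell by 0.40 ± 0.10 (SE) in AZF1 MoBY against MoBY control, with a limma adjusted p of 0.0477, and the difference of the effects was -0.59 ± 0.12, with an adjusted p of 0.0163. RRP12, another helical-repeat protein, known for the export of pre-ribosomes, was at 30.1 and 30.9 RPKM in WT, 34.8 and 35.8 in azf1Δ, 24.9 and 25.5 in MoBY control, and 21.4 and 19.7 in AZF1 MoBY. RRP12 was called only for the difference of the effects, -0.49 ± 0.13 with an adjusted p of 0.0425.

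The small-subunit factors with the highest changes in AZF1 MoBY were not called. RRP3, an RNA helicase of the DEAD-box family, was at 4.56 and 4.35 RPKM in WT, 4.14 and 4.03 in azf1Δ, 4.29 and 5.46 in MoBY control, and 8.94 and 7.57 in AZF1 MoBY, where both libraries lay above all others. Its difference from MoBY control was 0.66 ± 0.19 with an adjusted p of 0.0727. RRP3 shares a divergent promoter region with SSF1, a large-subunit factor. NOP19, a processome factor, was at 10.9 and 7.06 RPKM in WT, 11.6 and 10.4 in azf1Δ, 10.3 and 19.2 in MoBY control, and 21.4 and 19.8 in AZF1 MoBY. The MoBY control libraries of NOP19 were far apart, and its difference of 0.52 ± 0.27 had an adjusted p of 0.27. UTP14, an activator of a processome helicase, was at 9.99 and 8.28 RPKM in WT, 9.0 in both azf1Δ libraries, 4.89 and 6.82 in MoBY control, and 6.23 and 5.06 in AZF1 MoBY, and differed by -0.57 ± 0.21 between MoBY control and WT, with an adjusted p of 0.0978.

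The 14 large-subunit factors had the highest role median in azf1Δ against WT, 0.21, and none was called. Of these factors 13 of 14 lay above 0, against 59.0% of all genes. In azf1Δ, A was higher than B in 11 of these 14 factors, by a median of 0.19, against 0.04 over all genes. The part of azf1Δ A in the role median was not tested. In MoBY control against WT all 14 were below 0, against 52.1% of all genes, with a median of -0.28, and NOP15 was called. MoBY control A was lower than MoBY control B in 13 of these 14 factors, by a median of -0.56, and the part of that library in the shared sign was not tested. NOP15, a nucleolar RNA-binding protein, was at 30.3 and 31.1 RPKM in WT, 39.4 and 26.9 in azf1Δ, 18.4 and 20.7 in MoBY control, and 14.6 and 20.4 in AZF1 MoBY. NOP15 fell by 0.63 ± 0.12 (SE) in MoBY control against WT, with a limma adjusted p of 0.0147. NOP8 and NOP13 were also lower in MoBY control without overlap. NOP8 was at 5.46 and 4.59 RPKM in WT, 6.73 and 6.15 in azf1Δ, 2.07 and 3.78 in MoBY control, and 3.84 and 4.26 in AZF1 MoBY. NOP13 was at 11.4 and 11.0 in WT, 11.7 and 11.1 in azf1Δ, 5.62 and 8.57 in MoBY control, and 8.28 and 6.92 in AZF1 MoBY. Their differences from WT were -0.65 ± 0.27 and -0.62 ± 0.21, with adjusted p of 0.137 and 0.0864.

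NOP7, part of the complex of NOP7, ERB1 and YTM1 and the most abundant large-subunit member, was at 37.0 RPKM in both WT libraries, 42.8 and 37.3 in azf1Δ, 28.6 and 42.2 in MoBY control, and 26.7 and 23.9 in AZF1 MoBY. NOP2, a methyltransferase of the large-subunit RNA, was at 27.3 and 27.5 in WT, 31.8 and 27.9 in azf1Δ, 17.3 and 28.2 in MoBY control, and 16.6 and 14.4 in AZF1 MoBY. For NOP7 and NOP2 the MoBY control libraries differed from each other more than WT differed from azf1Δ. The difference of NOP2 between AZF1 MoBY and MoBY control was -0.49 ± 0.24, and ranged from -0.83 without MoBY control A to -0.15 without MoBY control B. NOP53, a late large-subunit factor, had the highest change in azf1Δ, 0.40 ± 0.14 with an adjusted p of 0.235. NOP53 was at 9.78 and 8.28 RPKM in WT, 13.2 and 11.2 in azf1Δ, 7.11 and 11.2 in MoBY control, and 12.2 and 11.1 in AZF1 MoBY.

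The 7 exosome subunits, which also act outside ribosome synthesis, had role medians of 0.02, -0.06 and 0.03 in the 3 comparisons. RRP45, a subunit of the exosome ring, was at 26.2 and 29.0 RPKM in WT, 24.8 and 21.1 in azf1Δ, 17.8 and 16.2 in MoBY control, and 15.7 and 16.3 in AZF1 MoBY. RRP45 fell by 0.67 ± 0.13 (SE) in MoBY control against WT, with a limma adjusted p of 0.0136, and in azf1Δ it differed from WT by -0.26 ± 0.12, with an adjusted p of 0.313. RRP42, another ring subunit, went the other way in azf1Δ. It was at 36.5 RPKM in both WT libraries, 46.9 and 46.5 in azf1Δ, 41.1 in both MoBY control libraries, and 47.5 and 41.4 in AZF1 MoBY, and its change of 0.35 ± 0.08 in azf1Δ had an adjusted p of 0.102. RRP40, a cap subunit and the most abundant exosome member, was at 77.7 and 97.0 RPKM in WT, 87.4 and 75.6 in azf1Δ, 86.2 and 91.8 in MoBY control, and 84.4 and 82.7 in AZF1 MoBY, with all groups inside the range of WT apart from azf1Δ B.

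Longer members had lower changes in AZF1 MoBY. Over the 53 members, Spearman's correlation between length and log2 change was -0.50 in AZF1 MoBY against MoBY control, 0.08 in azf1Δ against WT and -0.09 in MoBY control against WT. Over all genes with a length these were -0.06, 0.11 and 0.13. Of 15 members of 2000 bp or more, 14 lay below 0 in AZF1 MoBY against MoBY control, with a median of -0.30, and of 38 shorter members 19 did, with a median of 0.03. UTP20, UTP22 and the other long members share libraries and depth and are not replicates. The shift of MoBY control A against B was uneven over the members, from -0.84 for RRP15 to 0.50 for NOP58. Whether that shift runs with length, and the part of that library in the correlation, was not tested. The members' level ran with the change as well, with -0.40 in AZF1 MoBY against MoBY control and -0.18 over all genes, and the part of length and level in the calls was not tested.

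**Figure D5:**
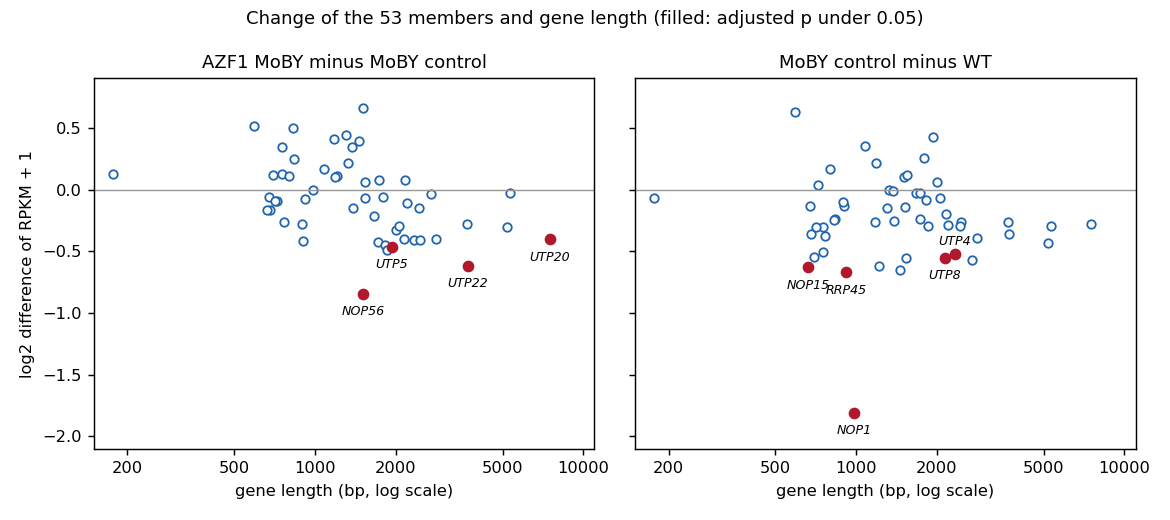
Log2 difference of RPKM + 1 of the 53 members against gene length in bp on a log axis, for AZF1 MoBY minus MoBY control and MoBY control minus WT, with called members filled. In the left panel 14 of 15 members of 2000 bp or more lie below 0, and in the right panel 14 of 15 do too.

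The changes were set beside the promoter elements. In AZF1 MoBY against MoBY control the median was -0.09 for 43 members with PAC and -0.07 for 10 without, and -0.17 for 31 members with RRPE and 0.02 for 22 without. In MoBY control against WT these medians were -0.26 and -0.19 for PAC, and -0.28 and -0.18 for RRPE. Of 15 members with A4GA3, 8 lay below 0 in AZF1 MoBY against MoBY control, and of 38 without it 25 did. The called UTP22 and RRP45 hold neither PAC nor RRPE.

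The other biogenesis factors are given for comparison, on lists that leave out the members. Of 44 other small-subunit factors, 1 was called lower in AZF1 MoBY (KRE33, an RNA acetyltransferase, lost without any 1 of the 4 libraries) and 8 in MoBY control against WT, with medians of -0.04 and -0.30. Of 66 other large-subunit factors, 1 was called higher (MRT4) and 2 lower in AZF1 MoBY, and 1 higher (SPB4, an RNA helicase) and 9 lower in MoBY control, with medians of -0.06 and -0.24. With any 1 library left out, the 8 small-subunit calls became 1, the 9 large-subunit calls 0 to 3, and the calls of MRT4 and SPB4 were lost. HAS1, a helicase of both subunits, was at 48.8 and 53.1 RPKM in WT, 30.3 and 31.3 in MoBY control, and 16.5 and 17.8 in AZF1 MoBY. It fell by 0.81 ± 0.11 (SE) in AZF1 MoBY with a limma adjusted p of 0.00924. Its call too was lost without either AZF1 MoBY library, in fits that call fewer genes over the whole table. NSR1, a nucleolin-like protein, was called lower in azf1Δ, the only such call among the biogenesis lists, and was not called once any of the 4 libraries was left out. It was at 105 and 107 RPKM in WT, 70.5 and 63.1 in azf1Δ, 52.7 and 51.3 in MoBY control, and 45.6 and 38.9 in AZF1 MoBY, and fell by 0.66 ± 0.09 in azf1Δ with an adjusted p of 0.0284 and by 1.02 ± 0.10 in MoBY control with an adjusted p of 0.0011. NSR1 and NOP1 thus both stepped down from WT to azf1Δ to the plasmid groups.

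Of 17 other snoRNP and exosome genes, 2 were called lower in AZF1 MoBY, led by CBF5, the pseudouridine synthase, and 1 was called higher (NAF1) and 4 lower in MoBY control, led by GAR1, a partner of CBF5. CBF5 fell by 0.61 ± 0.13 and GAR1 by 1.01 ± 0.12, with limma adjusted p of 0.0303 and 0.00258. Of 30 RNA polymerase I and III genes, 1 was higher (RRN10) and 2 lower in AZF1 MoBY and 5 lower in MoBY control. With any 1 library left out, each of these snoRNP, exosome and polymerase counts was 0 or 1. RPA190, the largest polymerase I subunit, was at 83.3 and 74.0 RPKM in WT, 88.0 and 89.3 in azf1Δ, 60.5 and 61.4 in MoBY control, and 38.9 and 37.0 in AZF1 MoBY, the order of groups seen for UTP22 and UTP20.

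The cytosolic ribosomal protein genes, which encode the ribosome itself, had more calls. Of 122, 86 were called lower in AZF1 MoBY against MoBY control, with a median of -0.70, and 68 in MoBY control against WT, with a median of -0.57. Leaving out a library lowered the 86 to 63 without MoBY control A, 34 without MoBY control B and 0 without either AZF1 MoBY library. It lowered the 68 to 3 without either WT library, 12 without MoBY control A and 27 without MoBY control B. Fits with 1 library in a group call fewer genes over the whole table, so these lowered counts are not particular to this list. None was called in azf1Δ, where 12 were higher and 19 lower at an unadjusted p under 0.05. The members' medians in the same comparisons were -0.08, -0.25 and 0.07.

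Among 13 regulators of these genes, DOT6 and TOD6, which encode repressors that bind PAC, were called higher in both plasmid comparisons, where 10.2% and 13.2% of all genes were. In AZF1 MoBY against MoBY control the 3 regulators called higher became 1 without either MoBY control library and 0 without either AZF1 MoBY library, and in MoBY control against WT the 2 became 0 without any 1 of the 4. Such fits called fewer genes over the whole table as well. DOT6 was at 52.7 and 45.3 RPKM in WT, 61.8 and 66.7 in azf1Δ, 76.6 and 84.4 in MoBY control, and 103 and 112 in AZF1 MoBY. TOD6 was at 9.71 and 10.3 in WT, 13.6 and 16.2 in azf1Δ, 18.6 and 18.0 in MoBY control, and 27.5 and 29.4 in AZF1 MoBY. Neither gene overlapped between any of the groups. In AZF1 MoBY against MoBY control DOT6 rose by 0.41 ± 0.10 (SE) and TOD6 by 0.61 ± 0.11, with limma adjusted p of 0.0448 and 0.0217, and in MoBY control against WT they rose by 0.71 ± 0.12 and 0.81 ± 0.13, with adjusted p of 0.00952 and 0.00804. In azf1Δ their changes of 0.39 ± 0.10 and 0.53 ± 0.13 were not called, with adjusted p of 0.132 and 0.115. CRF1, a corepressor of ribosomal protein genes, was at 13.5 and 12.8 RPKM in WT, 9.06 and 7.01 in azf1Δ, 20.4 and 17.1 in MoBY control, and 44.9 and 46.2 in AZF1 MoBY, and rose by 1.24 ± 0.125 in AZF1 MoBY with an adjusted p of 0.00406. MRS6, which binds the activator Sfp1, fell by 0.43 ± 0.11 in MoBY control with an adjusted p of 0.0313. The RRPE-binding repressor STB3, the activators SFP1, IFH1 and FHL1, and the kinases SCH9, TOR1, TOR2, RIM15 and YAK1 were not called in the pairwise comparisons, with changes between -0.41 and 0.33.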

How the data were processed

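RNA was sequenced from 8 libraries, 2 per group, after ribosomal RNA depletion, with a strand-specific kit and single-end 100-base reads. The authors trimmed reads with Trimmomatic 0.3.0, aligned them to the Y22-3 genome with Bowtie2 2.2.2, counted them per gene with HTSeq 0.6.0 and deposited log2 RPKM to 2 decimals. The strand setting of the counting is not given in the sources used here. Their own edgeR comparisons hold fold changes and adjusted p-values and were not used.

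The values were returned to RPKM, 1 was added as pseudocount and the log2 taken. Groups were compared with limma (version 3.58.1, R version 4.3.3, variance trend on), keeping genes that reached 1 RPKM in 2 or more of the 4 libraries. The difference of effects was fitted over all 8. P-values were adjusted by the Benjamini-Hochberg method over all genes tested and called under 0.05, and changes of low genes are understated by the pseudocount. RPKM is no count, so no count model was used. From the sizes of single reads, 84.8 to 88.8% of low values were within 0.15 of a whole read, against 30% by chance, which was too few to recover whole reads. The fits were tested on simulated data in which genes varied independently and the set changes were larger than those of most members. That test held no shift shared by the genes of a library, as in MoBY control A, and does not bear on it.

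The members and gene lists were chosen with earlier results of these data known. Values per library are given for called members, the largest uncalled changes without overlap (up to 3 per comparison), the most abundant member of each role, and the highest and lowest of all. In the other lists they are given for called genes with the largest change and for some regulators. Labels name the strain Y128, which carries KanMX per the study, and the methods describe Y133, its marker-rescued derivative. The kanR gene was at 0.2 and 0.35 RPKM in WT, as for a strain without that marker. Alternatives were other pseudocounts, filters and thresholds, a rescaling, no variance trend, all libraries in one fit, a replicate block and leaving out each library. Promoters and gene lengths were read from RefSeq R64, and all 53 members matched it. No coordinates are given, since the builds differ.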

Additional observations from a re-analysis of the deposited data

Results flagged for a closer look

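For 5 members the change in AZF1 MoBY against MoBY control differed from the change in azf1Δ against WT, by the test of that difference over all 8 libraries (limma). All 5 differences were below 0, or 9.43% of the members, against 6.8% of all genes. The plasmid pair was grown with G418 and differed in marker RNA, and in the other pair only azf1Δ had the cassette. These parts and AZF1 cannot be told apart in this difference. The difference, in log2(RPKM + 1), was -0.97 for NOP56, -0.80 for UTP22, -0.73 for UTP5, -0.59 for UTP20 and -0.49 for RRP12. At an adjusted p under 0.05, NOP56 and UTP22 passed in all 15 other fits, while UTP5, UTP20 and RRP12 missed the threshold under 6, 5 and 10 of them.

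The same test passed for 7 named genes outside the members, most of them named as the extremes of their lists, where 7.9% of all genes passed above 0 and 6.8% below. The difference was 1.90 for CRF1, 0.84 for MRT4, -0.46 for the kinase gene SCH9 (adjusted p 0.04998 by limma), -0.51 for KRE33, -0.83 for HAS1, -0.84 for RPA190 and -0.99 for RPL22A.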

How the results depend on the processing

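The count of members called in azf1Δ against WT was 0 in both directions under every alternative that kept all libraries. With the replicate block 0 of all genes were called, so 0 members was fixed there. With no filter on low values, and with no variance trend, 2 genes of the whole table were called higher and 3 lower. No stability is read from these counts. Over the alternatives the members' median ranged from 0.01 to 0.14 in azf1Δ against WT. It ranged from -0.19 to 0.04 in AZF1 MoBY against MoBY control and from -0.31 to -0.11 in MoBY control against WT. These moves stayed under the replicate spread. That spread was taken from the medians of the same libraries, so leaving out 1 could hardly exceed it, and no stability is read from this. In AZF1 MoBY against MoBY control, members called lower numbered 2 with no filter on low values, 2 after median-ratio rescaling, 1 with no variance trend, 2 with the replicate block and 0 at an adjusted p under 0.01, and members called higher numbered 1 with all 8 libraries in the fit and 1 at an adjusted p under 0.1. Leaving out a library gave 0 to 1 lower. In MoBY control against WT, 1 was called higher with all 8 libraries and 1 at an adjusted p under 0.1, and 12 were lower with all 8 libraries, 1 at an adjusted p under 0.01, 13 at an adjusted p under 0.1 and 1 to 2 without a library. The difference of the effects gave 1 at an adjusted p under 0.01 and 2 to 10 without a library. The longer PAC motif was found in 23 members. No called value changed sign, which leaving out a library could not bring about for the pairwise calls, whose groups did not overlap. The median in AZF1 MoBY against MoBY control turned from -0.08 to 0.04 without MoBY control B. The cause of these changes was not tested.

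The letters A and B are not stated to mark a shared day. The A minus B differences of all genes correlated at -0.11, -0.01 and 0.04 between the groups of the 3 comparisons, so the letters were not taken as pairs. With the replicate block, 0 members were called in azf1Δ, 2 in AZF1 MoBY (NOP56 and UTP22), 6 in MoBY control and 4 for the difference of the effects. In azf1Δ that block called 0 of all genes. Crossing the pairs in azf1Δ, an alternative chosen after seeing the data, called 9 genes higher and 32 lower over all genes and 0 members. A fit without a library assumes that the lone sample varies like the others. In the pairwise comparisons each such fit called fewer genes over the whole table than the fit with all libraries. Calls lost there are not particular to the members. Each group had 2 libraries, and 14 members had under 50 implied reads in some library.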
